A study of Mus musculus with 23 samples.

Results

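Cd274 and Pdcd1lg2 encode PD-L1 and PD-L2, the pair of known ligands of the inhibitory receptor PD-1. They were taken by name, as 2 of the 36793 genes measured in 23 mouse libraries, and both were found. The libraries fall into 8 groups. Macrophages came from subcutaneous tumours grown from HPV-positive MEER cells (3 libraries), HPV-negative MEER cells (3 libraries, numbered 1, 2 and 4) or SCCVII cells, which the labels also spell SSCVII (3 libraries). MEER tumours were carried by C57/Bl6 mice and SCCVII tumours by C3H/HeJ mice. Each macrophage library pooled 3 to 4 mice, and the sort kept CD45+ CD11b+ F4/80-high cells and left out Gr1+ cells. The same tumour cells were sequenced from culture as aliquots of a single line each (3 libraries per line). Colonies were grown from sorted macrophages over 9 days in a haematopoietic stem cell medium, from HPV-negative MEER tumours (3 libraries) and SCCVII tumours (2 libraries). MEER cells are transformed mouse oropharyngeal epithelial cells, and SCCVII is a mouse squamous carcinoma line. HPV status is 1 line against 1 line, and SCCVII differs from MEER in the mouse strain too, so neither virus nor tumour model can be told apart from the rest of what distinguishes these lines.

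PD-1 sits on activated T cells, and its engagement damps signalling from the T cell receptor. PD-L1 is found on many cell types and is best known as a product of interferon-gamma signalling through JAK1, JAK2 and IRF1. PD-L2 is found mainly on dendritic cells and macrophages, where interleukin-4 acting through STAT6 and the growth factor GM-CSF are known to raise it. PD-L1 also binds CD80 on the same cell surface, and PD-L2 also binds RGMb.

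Both genes lie on the forward strand of chromosome 19 (build GRCm38, GENCODE M21 annotation). Cd274 (ENSMUSG00000016496) spans positions 29367455 to 29388095, and Pdcd1lg2 (ENSMUSG00000016498) spans 29410919 to 29471161, with 22824 bases between them. The bases just upstream of each start are shown because the genes are neighbours that moved together and are known for different inducers. They come from RefSeq (GRCm38.p6), where both genes were matched by symbol. For Pdcd1lg2 these are the 250 bases before the start, chr19:29410669-29410918, forward strand. Capitals mark a stretch that has TTC and GAA separated by 4 bases, the spacing that STAT6 prefers. For Cd274 only the bases beyond the neighbouring gene Plgrkt are shown, chr19:29367391-29367437, forward strand, and capitals mark a GC box, GGGCGG.
Pdcd1lg2 upstream: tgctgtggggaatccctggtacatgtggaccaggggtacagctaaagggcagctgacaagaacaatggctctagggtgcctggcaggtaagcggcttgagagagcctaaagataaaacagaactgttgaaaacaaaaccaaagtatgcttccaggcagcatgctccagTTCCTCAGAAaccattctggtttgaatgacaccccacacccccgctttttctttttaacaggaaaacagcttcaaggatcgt
Cd274 upstream: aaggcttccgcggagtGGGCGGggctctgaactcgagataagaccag

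Each motif was searched on both strands in the 250 bases before every RefSeq start (32851 windows of 27025 genes). The STAT6-type letters began 82 bases before the Pdcd1lg2 start (positions 29410837 to 29410846) and were absent from the Cd274 window. Of all windows 5.9% held them. The GC box began 31 bases before the RefSeq start of Cd274, was absent from the Pdcd1lg2 window, and occurred in 32.7% of windows. The short interferon response letters GAAANNG was in both windows and in 47.0% of all. Neither window held the full interferon response element (TTTC repeated after 2 bases, 3.0% of windows) or the NF-kappaB letters searched (GGG and TTCC separated by 3 bases, 4.6%). The Pdcd1lg2 window did hold GGG and TCCC separated by 3 bases (GGGGAATCCC), a form of such letters that was not searched. The AP-1 letters TGANTCA (6.7%), the hypoxia core ACGTG (16.6%) and TATAAA (12.4%) were absent from both windows. The Cd274 window had 11 CpG dinucleotides and a GC content of 50.4%, against 3 and 48.4% for Pdcd1lg2. A match describes letters and shows no binding, and sites outside these windows were not searched.

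Levels are given as CPM, the usual counts scaled to library size, here with TMM factors over all 23 libraries, as mean ± SD over the libraries of a group. Depth was 26848759 to 47609481 expected counts per library. Genes of the sort's markers were present in all 9 macrophage libraries, though Adgre1 (F4/80) stood at 515 ± 52.1 CPM in HPV-positive against 829 ± 170.0 in HPV-negative macrophages (log2 -0.66 ± 0.14) and Itgam (CD11b) at 1222 ± 70.0 against 2042 ± 113 CPM (-0.72 ± 0.08), both called lower. Csf1r, the receptor for macrophage growth factor, was between 2480.3 and 3555 CPM, and Ly6g, the neutrophil part of the Gr1 epitope, had 0 counts in each. HPV-negative macrophage replicate 4 stood apart, with the keratin Krt8 at 59.0 CPM against 20.8 and 13.4, and 7 fibroblast markers summing to 92.2 CPM against 16.1 and 15.6. The colony libraries were unlike one another and did not all carry the markers of their labelled type. The leucocyte gene Ptprc (CD45) stood at 149, 2.72 and 0.392 CPM in HPV-negative colony replicates 1, 2 and 3, and at 113 and 3.78 CPM in SCCVII colony replicates 1 and 2. The complement gene C1qa, at 2460.1 CPM or more in each macrophage library, stood at 82.8 CPM in HPV-negative colony replicate 1 and at 0 counts in replicates 2 and 3.

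Cd274 was far higher in macrophages of HPV-positive tumours than anywhere else in the series. Its level was 727, 657 and 655 CPM in the 3 HPV-positive macrophage libraries and 105, 99.9 and 73.2 CPM in the HPV-negative ones, replicate 4 being the lowest. SCCVII macrophages held 21.7, 24.1 and 26.1 CPM. These 3 groups did not overlap, and every library of 1 group lay on the same side of every library of the next. How many of all genes lack such overlap was not counted, here or for the groups and genes below.

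Pdcd1lg2 followed the same order over a wider range. The HPV-positive macrophage libraries stood at 197, 192 and 153 CPM, from 4271, 4417 and 3897 counts. The HPV-negative ones stood at 4.05, 5.51 and 1.40 CPM, from 125, 177 and 47 counts, again with replicate 4 lowest. In SCCVII macrophages the gene was close to the limit of detection, at 17, 1 and 5 counts (0.582, 0.0331 and 0.171 CPM), where 3 counts correspond to about 0.1 CPM in a library. The 3 groups did not overlap for this gene either.

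**Figure D1:**
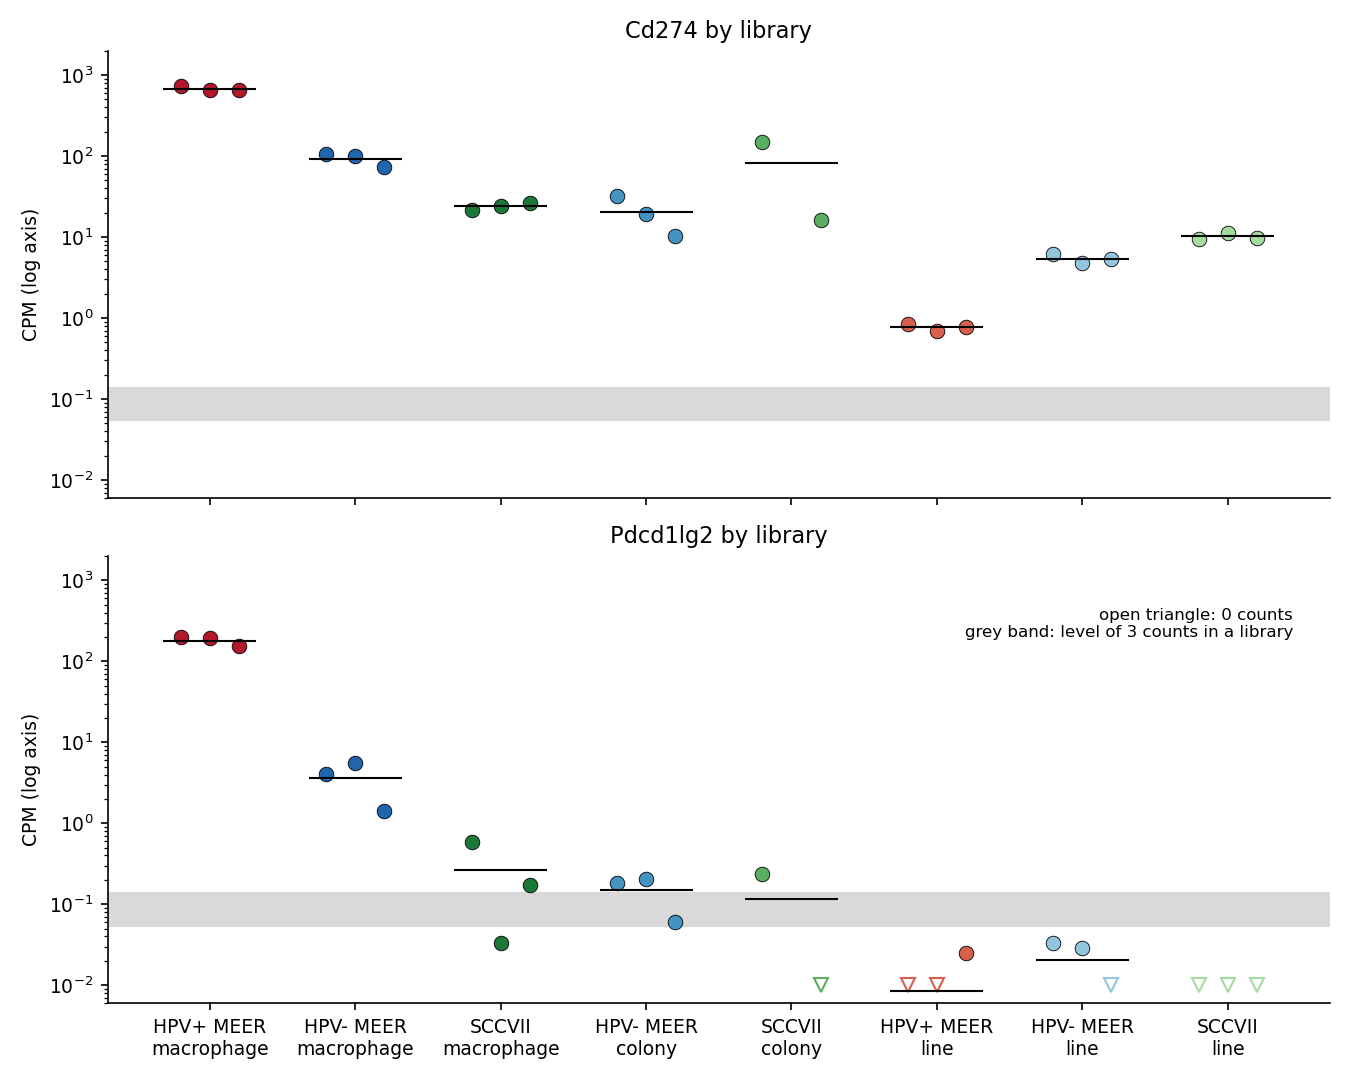
Level of Cd274 (top) and Pdcd1lg2 (bottom) in each of 23 libraries, in CPM on a log axis, by group. Points are libraries, black lines are group means, open triangles are libraries with 0 counts, and the grey band is the range of levels that 3 counts stand for. Macrophages of HPV-positive tumours are highest for both genes, at means of 679.5 and 180.4 CPM.

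Between macrophages of the MEER tumours, Cd274 was higher in HPV-positive ones by a log2 of 2.90 ± 0.13 (SE), 7.46-fold, and Pdcd1lg2 by 5.66 ± 0.39, 50.5-fold. Both passed the quasi-likelihood test of edgeR over all genes (Benjamini-Hochberg adjusted p = 7.3e-07 and 5.5e-06), in a comparison where 48.7% of genes passed, 22.8% higher and 25.9% lower. Bulk libraries cannot tell fewer cells of a type from less RNA per cell. Without HPV-negative replicate 4 the changes were 2.76 and 5.26, and both genes still passed.

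SCCVII macrophages had less of both genes than HPV-negative MEER macrophages. Cd274 was lower by a log2 of -1.97 ± 0.13 (3.91-fold, edgeR adjusted p = 5.1e-06) and Pdcd1lg2 by -3.80 ± 0.69 (14.0-fold, adjusted p = 0.002). In this comparison 39.2% of genes passed, 18.7% higher and 20.5% lower. Without SCCVII replicate 1, which holds 17 of the group's 23 counts, the Pdcd1lg2 change was -5.13, and without HPV-negative replicate 4 it was -4.20. Against HPV-positive macrophages the differences were -4.87 ± 0.15 for Cd274 (29.2-fold, adjusted p = 1.1e-08) and -9.46 ± 0.54 for Pdcd1lg2 (705-fold, adjusted p = 5e-07). That comparison had 63.2% of genes past the threshold, 32.2% higher and 30.9% lower, and the Pdcd1lg2 change was -10.78 without SCCVII replicate 1. The 3 comparisons share groups, so they are not independent of each other.

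The ligands did not keep a fixed proportion to each other. Levels of different genes can be compared only per length, which the deposited TPM, transcripts scaled by length and depth, allow. Cd274 stood at 247 ± 14.1 TPM and Pdcd1lg2 at 148 ± 19.5 TPM in HPV-positive macrophages, so that PD-L2 transcripts amounted to 61.1%, 65.9% and 52.7% of PD-L1 transcripts in the 3 libraries. In HPV-negative macrophages they amounted to 8.72%, 12.5% and 4.33%, and in SCCVII macrophages to 6.00%, 0.286% and 1.5%. The HPV-positive libraries lay above all others, while the HPV-negative and SCCVII libraries overlapped. The log2 ratio of the counts differed among the 3 groups (means -1.92 ± 0.16, -4.85 ± 0.77 and -7.08 ± 1.88, n = 3 each, exact permutation test over the 9 libraries, p = 0.00714, where 0.00357 is the smallest p possible). The percentages rest on the gene lengths in the deposited tables, and with the union of all annotated exons the HPV-positive mean fell from 59.9% to 49.0%. In colonies the share was 1.27% to 2.38% for HPV-negative MEER and at most 0.353% for SCCVII.

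**Figure D2:**
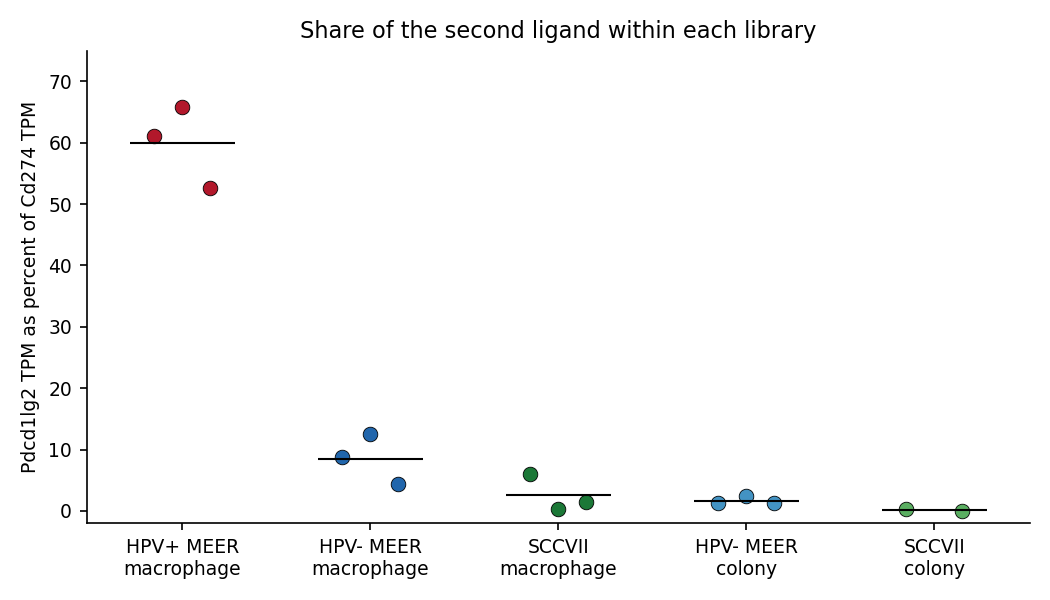
Pdcd1lg2 TPM as a percentage of Cd274 TPM within each macrophage and colony library. Points are libraries and black lines are group means, and HPV-positive macrophages lie between 52.7% and 65.9% while no other library exceeds 12.5%.

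In cultured tumour cells the order of Cd274 was turned round. The HPV-positive line held the least, at 0.841, 0.688 and 0.780 CPM (28, 24 and 31 counts), below the HPV-negative line at 6.12, 4.84 and 5.32 CPM and the SCCVII line at 9.52, 11.2 and 9.78 CPM. No line overlapped another. The log2 differences were -2.82 ± 0.20 for HPV-positive against HPV-negative (7.07-fold lower, edgeR adjusted p = 2.9e-06, 47.0% of genes called), 0.81 ± 0.18 for SCCVII against HPV-negative (1.75-fold, adjusted p = 0.0026, 58.8% called) and 3.63 ± 0.20 for SCCVII against HPV-positive (12.4-fold, adjusted p = 1.6e-07, 64.0% called). These libraries are aliquots of a line, so the p-values measure the spread between aliquots, which may be technical. Pdcd1lg2 was hardly detectable in any line, with 1, 1 and 0 counts in HPV-negative, 0, 0 and 1 in HPV-positive and 0 in all 3 SCCVII libraries, where a count of 0 allows up to 0.107 CPM in a library. It was not tested between lines, and a difference was not detectable at this depth.

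Each line was then set beside the macrophages of its own tumour. Cd274 was higher in macrophages in all 3 models, by a log2 of 4.22 ± 0.14 in HPV-negative MEER (18.6-fold, edgeR adjusted p = 1.7e-13), 9.94 ± 0.19 in HPV-positive MEER (986-fold, adjusted p = 2e-16) and 1.37 ± 0.13 in SCCVII (2.59-fold, adjusted p = 6e-08). So many genes differ between a leucocyte and a carcinoma cell that 76.1%, 78.8% and 73.0% of genes passed in these comparisons. The line libraries are aliquots, so p-values here and in later comparisons with lines rest partly on the spread between aliquots. For Pdcd1lg2 the counts were 349 in HPV-negative macrophages against 2 in the line, a ratio of levels of 191 with a 95% counting interval of 52.4 to 1582 (adjusted p = 1.9e-06). In HPV-positive MEER they were 12585 against 1, a ratio of 19333 with an interval of 3469 to 763685 (adjusted p = 3.9e-10). In SCCVII they were 23 against 0, at least 8.43-fold higher against a floor of 3 counts summed over the line's libraries (adjusted p = 0.014), and this call was lost without SCCVII macrophage replicate 1 (adjusted p = 0.088). The fitted log2 change of Pdcd1lg2 rests on single counts in the lines: it was 7.42 in HPV-negative MEER and 6.82 without line replicate 3, and 13.89 in HPV-positive MEER and 15.56 without line replicate 3.

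The turn in order between macrophages and lines was tested as an interaction. The HPV-status change of Cd274 was larger in macrophages than in lines by a log2 of 5.73 ± 0.21 (edgeR adjusted p = 2.3e-11, 41.0% of genes called). The change from HPV-negative MEER to SCCVII differed by -2.84 ± 0.18 between macrophages and lines (adjusted p = 5.2e-09, 43.6% called). For Pdcd1lg2 neither interaction passed (6.47 ± 3.64, adjusted p = 0.18, and -1.31 ± 5.04, adjusted p = 0.89), and these sizes depend on the prior count because the lines hold 0 to 2 counts in all.

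Colonies carried Cd274 at levels that varied more within a group than anywhere else. HPV-negative colonies stood at 32.4, 19.3 and 10.2 CPM, all below the macrophages of that tumour. SCCVII colonies stood at 148 and 16.4 CPM, on either side of SCCVII macrophages. Markers varied along with it. The summed level of 9 macrophage markers was 12819, 938 and 95.2 CPM in HPV-negative colony replicates 1, 2 and 3, and 14221 and 1226 CPM in SCCVII colony replicates 1 and 2, so within each tumour the libraries kept the same order for these markers as for Cd274. Each of the 9 markers was above 0 in some library of each colony group. Neutrophil markers (353, 13.5 and 2.53, then 48.6 and 23.6 CPM) and eosinophil markers (3.22, 2.52 and 0.513, then 222 and 15.5 CPM) kept that order too. So did the summed B cell and endothelial markers, while no other marker list kept it in both tumours. The part of any of these cells in the Cd274 level was not tested. Fibroblast markers summed to 624, 1390.1 and 451 CPM and to 4141 and 2799 CPM in the same libraries, where the cultured lines themselves stood at 168 to 254 CPM (HPV-negative) and 2717 to 2852 CPM (SCCVII). Epithelial markers summed to 378, 439 and 537 CPM and to 214 and 267 CPM.

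**Figure D3:**
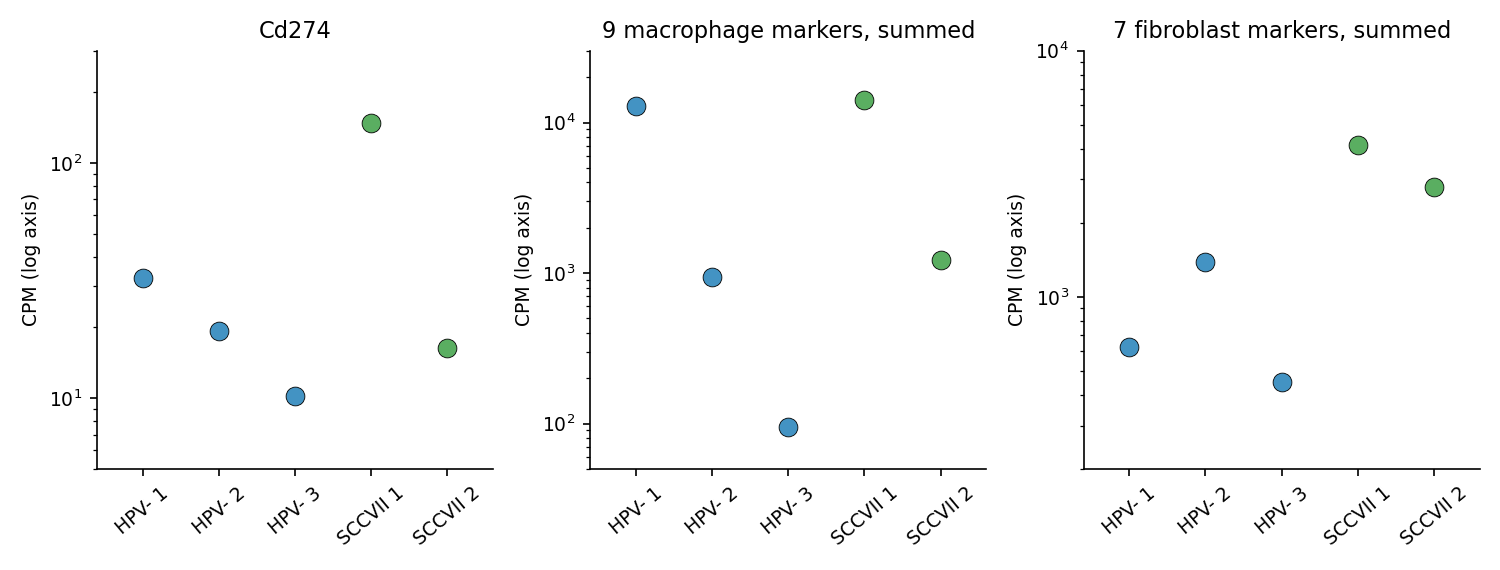
Cd274 (left), the sum of 9 macrophage markers (middle) and the sum of 7 fibroblast markers (right) in the 5 colony libraries, in CPM on log axes. Replicate 1 of each tumour is highest for Cd274, at 32.4 and 148 CPM, and for the macrophage markers.

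Against macrophages of the same tumour, HPV-negative colonies were lower in Cd274 by a log2 of -2.15 ± 0.69 (4.45-fold, edgeR adjusted p = 0.023) and in Pdcd1lg2 by -4.56 ± 1.10 (23.6-fold, adjusted p = 0.0063, from counts of 10, 7 and 2), where 62.7% of genes passed. The Cd274 call was lost without HPV-negative colony replicate 2 or 3 or macrophage replicate 1 or 2 (adjusted p = 0.051 to 0.075). SCCVII colonies did not pass for Cd274 (1.76 ± 0.73, adjusted p = 0.071) or Pdcd1lg2 (-1.24 ± 1.35, adjusted p = 0.46, from 6 and 0 counts), where 51.9% of genes passed, and the Cd274 difference was -0.54 without SCCVII colony replicate 1 and 2.61, past the threshold, without replicate 2. For Pdcd1lg2 the same omissions gave -6.17 and -0.17. Between the 2 kinds of colony, where 40.4% of genes passed, neither Cd274 (1.96 ± 0.74, adjusted p = 0.06) nor Pdcd1lg2 (-0.47 ± 1.35, adjusted p = 0.8) did. For Cd274 this was -0.33 without SCCVII colony replicate 1, and it passed at 2.81 without replicate 2 and at 2.43 without HPV-negative colony replicate 1. The HPV-negative colony libraries come from a separate deposited table, and any difference in handling cannot be told apart from that group.

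The step from macrophage to colony differed between the tumours for Cd274, by 3.91 ± 1.01 (edgeR adjusted p = 0.022, 24.1% of genes called). That call was lost without SCCVII colony replicate 1 (1.62, adjusted p = 0.12; 4.76 without replicate 2), without HPV-negative colony replicate 2 (3.79) or without any 1 of the SCCVII macrophage replicates 1, 2 and 3 (3.85, 3.92 and 3.98). For Pdcd1lg2 the same difference was 3.32 ± 1.76 (adjusted p = 0.2). Set against the lines, Cd274 was higher in HPV-negative colonies by 1.92 ± 0.66 (3.78-fold, adjusted p = 0.032, 53.2% of genes called) and in SCCVII colonies by 3.07 ± 0.72 (8.42-fold, adjusted p = 0.0064, 46.9% called). The first call was lost without HPV-negative colony replicate 1 or 2 or any 1 of the line's replicates 1, 2 and 3 (1.42 to 2.04), and the second without SCCVII colony replicate 1 (0.81; 3.87 without replicate 2). Pdcd1lg2 was not tested there. Its counts were 19 against 2 in HPV-negative MEER, a ratio of 8.19 with a 95% counting interval of 1.98 to 72.5, and 6 against 0 in SCCVII, at least 3.31-fold higher. All 6 came from SCCVII colony replicate 1, and replicate 2 had 0 counts like the line, so the groups overlapped and no bound remains without replicate 1.

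Over all 8 groups the mean level of Cd274 ran from 679.5 ± 41.2 CPM in HPV-positive macrophages through 92.7 ± 17 in HPV-negative macrophages, 82.1 ± 92.9 in SCCVII colonies, 24.0 ± 2.18 in SCCVII macrophages, 20.6 ± 11.2 in HPV-negative colonies, 10.2 ± 0.911 in the SCCVII line and 5.43 ± 0.649 in the HPV-negative line to 0.770 ± 0.0768 in the HPV-positive line. From HPV-negative macrophages down to the SCCVII line, neighbours in this order overlapped. The order of Pdcd1lg2 began with the same pair, 180.4 ± 24.0 and 3.65 ± 2.08 CPM, and from SCCVII macrophages (0.262 ± 0.286 CPM) down every group overlapped the next.

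The chromosomal neighbourhood was examined because both ligands moved in the same direction. Of 21 annotated genes with a row in the tables that reach into the span from 500 kb before Cd274 to 500 kb after Pdcd1lg2, 15 passed the filter on low counts, 13 of them besides the ligands. In HPV-positive against HPV-negative macrophages 3 of these 13 rose and 3 fell, shares close to those over all genes (22.8% higher and 25.9% lower), with a median log2 of -0.05, the same as over all genes. The 3 that rose include the nearest tested gene on either side. Jak2, the kinase of the interferon-gamma receptor, ends 54.4 kb before Cd274 and stood at 335, 235 and 283 CPM against 85.9, 67.8 and 71.5 (log2 1.94 ± 0.14, edgeR adjusted p = 5.8e-06). Plgrkt, a plasminogen receptor gene that starts 65 bases from Cd274 on the other strand, stood at 112, 109.9 and 100 CPM against 62.8, 67.8 and 64.0 (0.75 ± 0.07, adjusted p = 2.7e-05). Ric1, a gene of vesicle traffic that starts 51.1 kb after Pdcd1lg2, stood at 125, 126 and 116 CPM against 43.7, 47.8 and 46.0 (1.44 ± 0.07, adjusted p = 7.3e-07). None of these 3 overlapped between the groups. The share of all genes without overlap was not counted, and 48.7% passed the test in this comparison.

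Farther out the direction was mixed. Ermp1, an endoplasmic reticulum peptidase, was lower by a log2 of -0.55 ± 0.07, the adenylate kinase Ak3 by -0.24 ± 0.06 and the phosphatase Plpp6 by -0.25 ± 0.09. Insl6, an insulin-like peptide between Jak2 and Plgrkt, did not pass (0.11 ± 0.21), nor did Cdc37l1, Rcl1, Ranbp6, 9930021J03Rik, the pseudogene Gm10136 or Il33. In SCCVII against HPV-negative macrophages Plgrkt (-0.84 ± 0.07) and Ric1 (-0.59 ± 0.07) fell with the ligands, while Jak2 did not pass (-0.17 ± 0.13, adjusted p = 0.35). Il33, an alarmin of the interleukin-1 family, also fell there, from 1.54 to 0.0896 CPM, where the first mean rests on HPV-negative replicate 4 (2.86 CPM against 0.875 and 0.872), and Ak3, Rcl1 and Ermp1 rose. Of the 13 genes, 3 thus fell and 3 rose, where 20.5% and 18.7% of all genes did. In SCCVII against HPV-positive macrophages Jak2 (-2.11 ± 0.14), Plgrkt (-1.59 ± 0.07) and Ric1 (-2.02 ± 0.07) all fell, as did Insl6 and Il33. That made 5 of 13 lower and 4 higher, where 30.9% and 32.2% of all genes were. In the lines Jak2 stood at 79.3 CPM in HPV-positive, 105 in HPV-negative and 49.4 in SCCVII cells. Antisense transcripts that overlap the ligands were not analysed here, and the strand setting of the counting is not given in the sources used here.

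**Figure D4:**
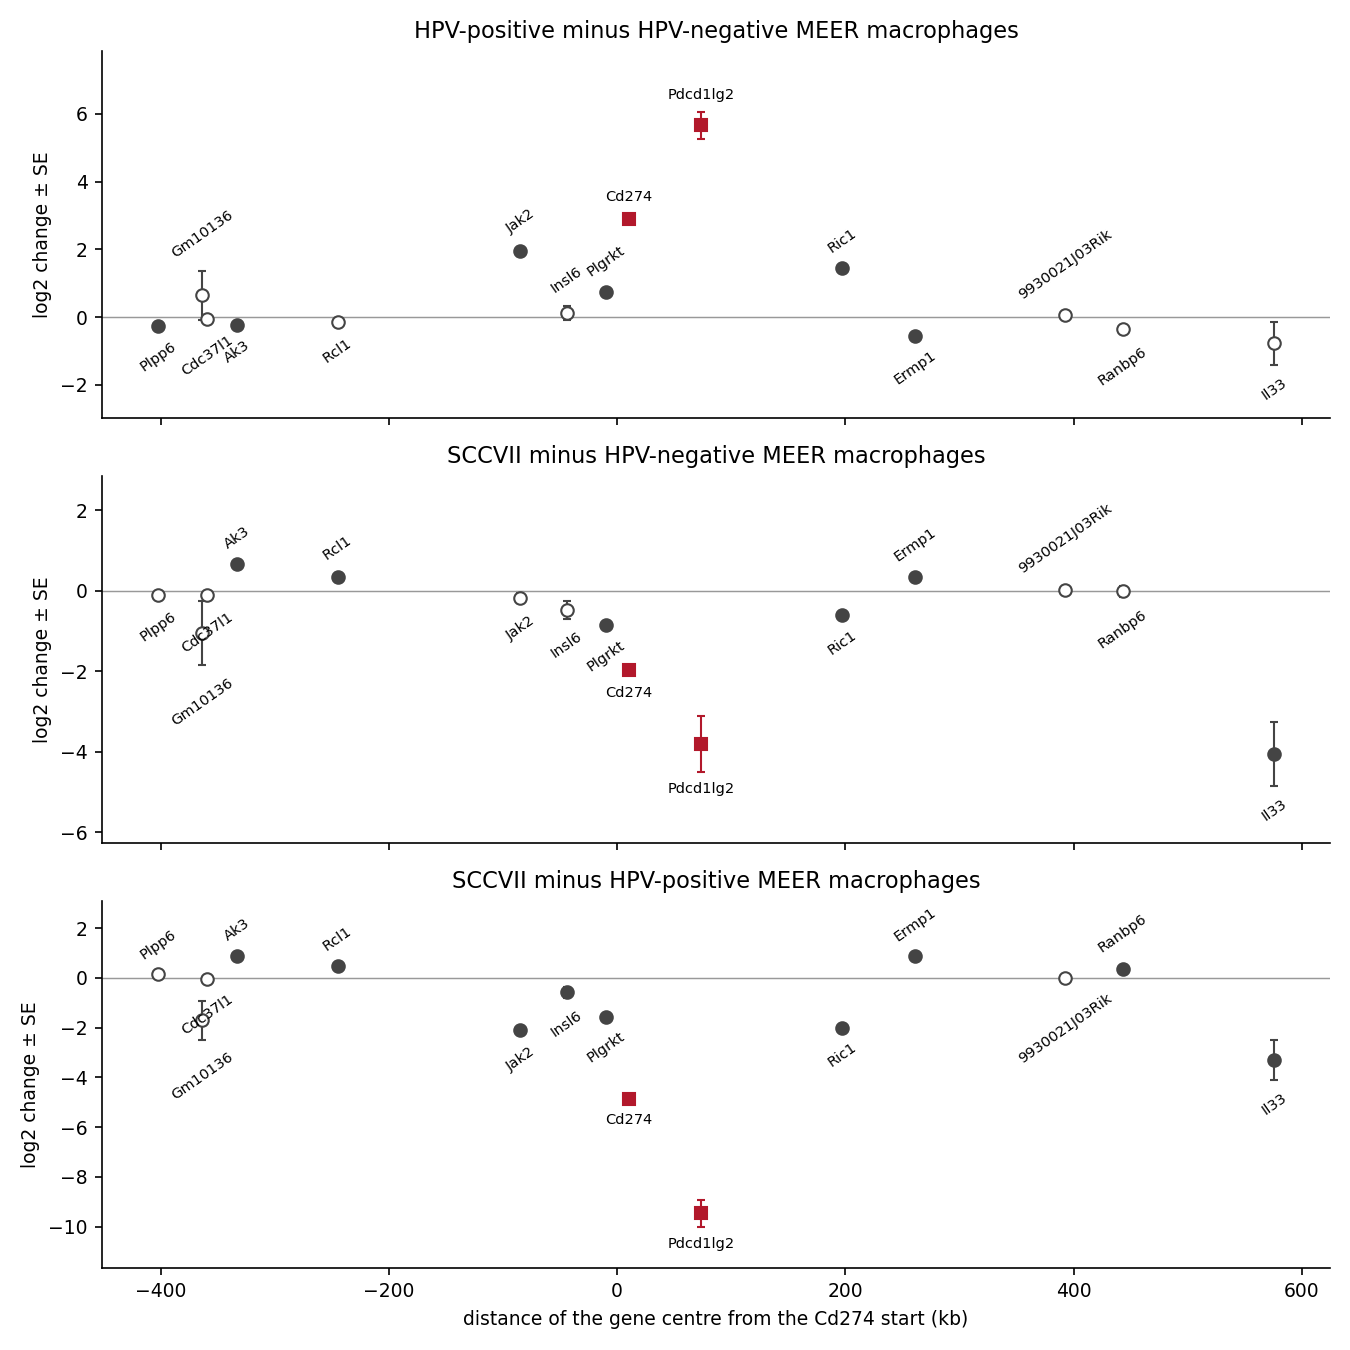
Change of each tested gene around the ligands in the 3 macrophage comparisons, as log2 change ± SE, against the distance in kb of the gene's centre from the Cd274 start. Squares are the ligands, filled symbols passed the test and open symbols did not; Jak2, Plgrkt and Ric1 lie on the same side of 0 as the ligands in the top panel (1.94, 0.75 and 1.44).

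Of the 3 other binding partners, Pdcd1, which encodes PD-1 itself, stood at 6.82, 2.60 and 5.65 CPM in HPV-positive and 4.96, 2.09 and 4.57 CPM in HPV-negative macrophage libraries, and at 0.445, 0.397 and 0.648 CPM in SCCVII ones. The MEER groups overlapped (log2 0.40 ± 0.41, edgeR adjusted p = 0.45), and SCCVII was lower than HPV-negative by -2.97 ± 0.47 (adjusted p = 0.00094). The T cell gene Cd3e moved alongside, at 4.47, 3.99 and 0.863 CPM in the 3 groups, and its part in the Pdcd1 level was not tested. Cd80 stood at 133, 104 and 114 CPM in HPV-positive, 23.4, 27.7 and 23.0 in HPV-negative and 10.7, 7.01 and 7.68 in SCCVII macrophages, with no overlap, and its changes were 2.27 ± 0.15 and -1.57 ± 0.16 against HPV-negative MEER. In the lines Cd80 stood at 6.21, 2.87 and 2.97 CPM in HPV-positive and at 42.0, 86.5 and 55.3 CPM in HPV-negative cells, without overlap. Among the 3 macrophage groups Rgmb, the second partner of PD-L2, was highest in HPV-negative ones, at 23.7 ± 1.72 CPM. It stood at 14.9 ± 1.54 CPM in HPV-positive (-0.65 ± 0.09, edgeR adjusted p = 0.00034) and 19.1 ± 0.440 CPM in SCCVII ones (-0.33 ± 0.09, adjusted p = 0.016). Colonies held more Rgmb, at 106, 104 and 115 CPM in HPV-negative and 38.5 and 32.6 CPM in SCCVII libraries.

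Of 4 other tested members of the B7 family, 3 rose in HPV-positive against HPV-negative macrophages, namely Cd86, the second CD28 ligand (0.70 ± 0.12), Icosl, the ICOS ligand (0.89 ± 0.07), and Cd276 (0.25 ± 0.08), while Vsir, which encodes VISTA, did not pass (0.22 ± 0.11). The median of the 4 was 0.48. In SCCVII against HPV-negative macrophages Cd276 fell from 96.1 to 7.54 CPM (-3.69 ± 0.09) and Cd86 from 124 to 47.8 CPM (-1.39 ± 0.12), and Icosl (-0.17 ± 0.07) and Vsir (-0.27 ± 0.11) did not pass. Vtcn1 had too few counts in macrophages to be tested.

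Lists of genes that act on the ligands were described by how many members passed in each direction, to be read against the shares of all genes given above and against medians over all genes of -0.05 and -0.02 in the comparisons with HPV-negative macrophages. Of 14 genes that act on PD-L1 protein, by stabilising, degrading or glycosylating it, 3 rose and 3 fell in HPV-positive macrophages (median log2 0.01). Cmtm6, the best known stabiliser of PD-L1, did not pass (0.23 ± 0.13), and the largest changes that did were in its relative Cmtm4 (-0.73 ± 0.18) and in Stub1, a ubiquitin ligase (-0.26 ± 0.06). In SCCVII against HPV-negative macrophages 1 rose and 2 fell (median -0.08). RNA says nothing about the protein level these genes control.

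Genes of interferon-gamma signalling rose more often than they fell in HPV-positive macrophages, 8 of 12 against 1 (median log2 0.45). Jak2 (1.94 ± 0.14) and the feedback inhibitor Socs1 (1.94 ± 0.13) rose most, and the receptor chain Ifngr2 fell (-0.59 ± 0.07). The cytokine gene Ifng, chosen for mention after its values were seen, stood at 8.11 ± 3.17 CPM against 2.43 ± 1.07 (1.76 ± 0.48, edgeR adjusted p = 0.014) and at 0.0797 ± 0.0859 CPM in SCCVII macrophages. Of 11 tested target genes 6 rose and none fell (median 0.49), with the other 5 at adjusted p of 0.067 to 0.53. Ciita, the switch of MHC class II genes, rose by 2.14 ± 0.33 and the chemokine Cxcl9 by 1.17 ± 0.29, while Cxcl10 stood at 135 ± 18.3 against 176 ± 54.2 CPM and did not pass. In SCCVII against HPV-negative macrophages 5 of 12 signalling genes fell and none rose (edgeR, median -0.21), and 5 of 11 targets fell and 1 rose (median -0.26). Without HPV-negative replicate 4 those falls were 8 of 12 and 8 of 11.

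Among the 9 lists that are not cell type markers, targets of interleukin-4 and STAT6 had the median farthest from 0 in each macrophage comparison. In HPV-positive macrophages 9 of 12 rose and 1 fell, with a median log2 of 2.49. Ccl24 rose by 7.48 ± 0.23 and Ccl17 by 5.75 ± 0.41, both chemokines of type 2 responses, whereas the mannose receptor Mrc1 fell (-1.11 ± 0.21) and the arginase Arg1 did not pass (0.16 ± 0.18). In SCCVII against HPV-negative macrophages 11 of the 12 fell and none rose (edgeR, median -1.72), with Ccl24 at -4.18 ± 0.28 and the chitinase-like Chil3 at -3.37 ± 0.39. The signalling genes did not keep this order. They rose in HPV-positive macrophages, 7 of 9 with none falling (edgeR, median 0.92), led by Irf4 (2.69 ± 0.16) and Socs3 (2.24 ± 0.28). In SCCVII macrophages 5 of 9 were higher than in HPV-negative ones and 3 lower (median 0.32), with Irf4 (1.51 ± 0.16) and Pparg (1.47 ± 0.25) up and Il4ra (-1.27 ± 0.17) and Socs3 (-1.04 ± 0.27) down. Stat6 itself stood at 332 ± 14.4, 305 ± 4.25 and 386 ± 9.29 CPM in HPV-positive, HPV-negative and SCCVII macrophages. Il13 had 0 counts in every library, which allows up to 0.138 CPM, and Il4 means were 0.103 to 0.236 CPM in macrophages.

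Of 23 other known inducers of PD-L1, 15 rose and 2 fell in HPV-positive macrophages (median log2 0.74). The cytokine Il6 went from 1.12 ± 0.729 to 16.7 ± 0.563 CPM and the transcription factor Bhlhe40 from 143 ± 15.4 to 1616 ± 166 CPM (3.52 ± 0.11), while the NF-kappaB subunit Nfkb2 (-0.46 ± 0.14) and the hypoxia factor Epas1 (-1.15 ± 0.26) fell. Hypoxia targets rose in 10 of 12 cases with none falling (edgeR, median 1.09), led by Vegfa (2.53 ± 0.08) and Ndrg1 (2.19 ± 0.11). In SCCVII against HPV-negative macrophages 9 inducers fell and 2 rose (median -0.12), and of the hypoxia targets 4 fell and 3 rose (median -0.23), with Vegfa at -2.39 ± 0.08 and Ndrg1 at 1.37 ± 0.11. In SCCVII against HPV-positive macrophages the falls were 11 of 12 interleukin-4 targets, 8 of 11 interferon-gamma targets, 14 of 23 inducers and 10 of 12 hypoxia targets, against rises of 0, 1, 2 and 1.

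**Figure D5:**
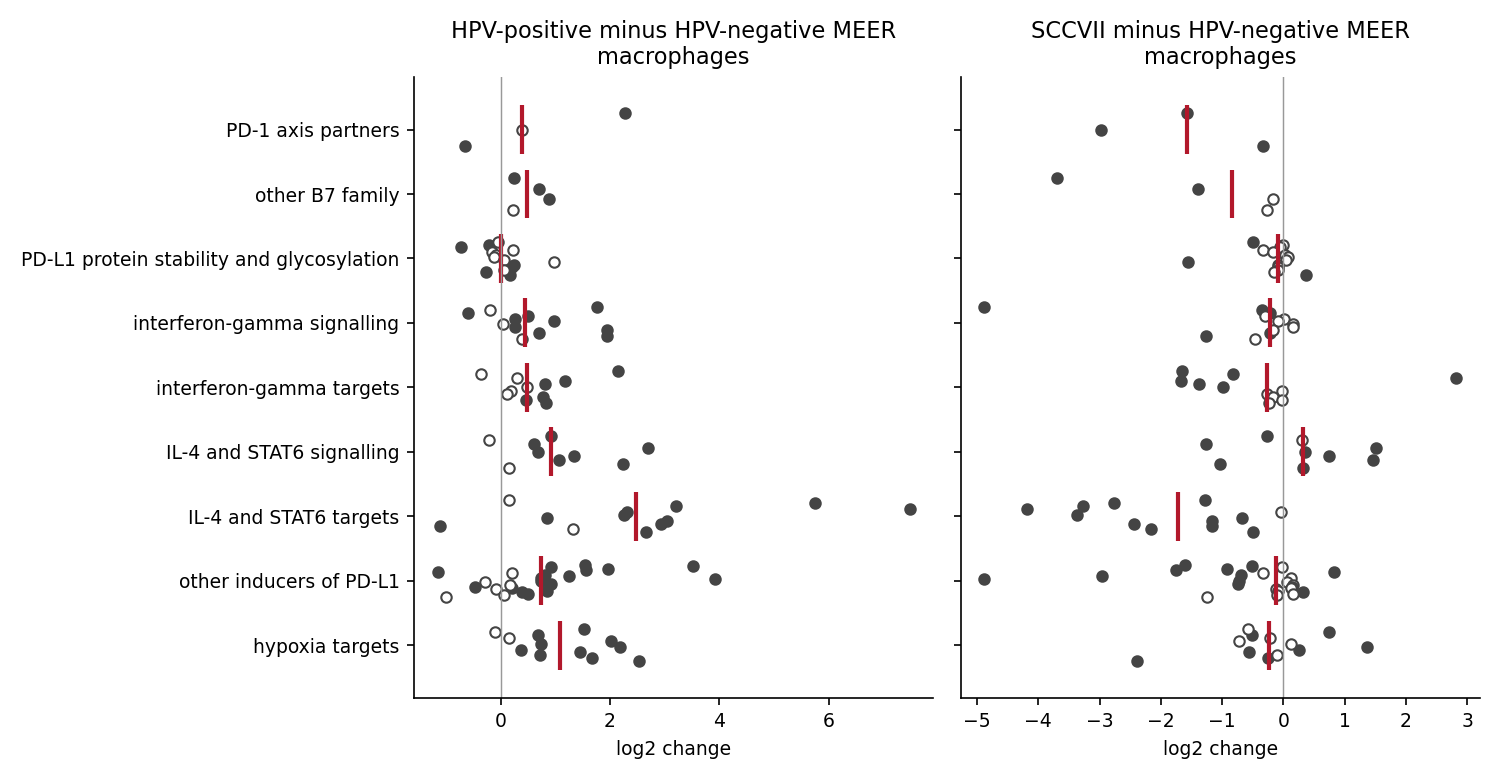
Log2 change of every tested gene of 9 lists in macrophages of HPV-positive (left) and SCCVII (right) tumours, each minus those of HPV-negative MEER tumours. Filled circles passed the test, open circles did not, and red bars are list medians, which reach 2.49 and -1.72 for the interleukin-4 and STAT6 targets.

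The genes most like each ligand were taken by Pearson correlation of log2 CPM among genes with a mean of at least 10 CPM in some group, leaving out predicted genes. Over the 23 libraries, which share large differences between cell types, Pdcd1lg2 was closest to Ccl24 (r = 0.993), Adamdec1 (0.989), Klrb1c (0.986), Gpr55 (0.985) and Hepacam2 (0.983). Each of these genes reached a mean of 10 CPM only in HPV-positive macrophages, and most other group means lay below the pseudocount of 0.5 CPM. That high group therefore largely sets these correlations. Cd274 was closest to Vps53 (0.959), Nos2, Msrb1 and Xbp1 (0.949 each) and Cyp4f16 (0.947). The ligands correlated with each other at 0.828, which placed Cd274 at rank 225 of 11270 genes for Pdcd1lg2, and Pdcd1lg2 at rank 500 for Cd274. Over the 9 macrophage libraries, which are mostly 3 separate levels, the pair's correlation was 0.986 (ranks 143 and 125 of 11261). There Cd274 was closest to Hilpda (0.999), St7, Cxcl1 and Vps53 (0.998 each) and Pgf (0.997), and Pdcd1lg2 to Csf2rb and Ets2 (0.998 each), Il1rn, Rin3 and Acly (0.997 each). Csf2rb, the shared receptor chain for GM-CSF and interleukin-3, stood at 1771, 459.9 and 247 CPM in HPV-positive, HPV-negative and SCCVII macrophages. In those libraries 728 genes correlated with Cd274 and 726 with Pdcd1lg2 at 0.95 or above.

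Markers of some other cells moved with the ligands among the macrophage groups, and others did not. Between the MEER groups 22.8% of all genes rose and 25.9% fell, and in SCCVII against HPV-negative macrophages 18.7% rose and 20.5% fell. In HPV-positive against HPV-negative macrophages, 1 of 4 tested B cell markers and 2 of 6 tested fibroblast markers fell, and none of either rose. Of 9 tested dendritic cell markers 7 rose in HPV-positive against HPV-negative macrophages and none fell (edgeR). Those 7 were Flt3 (15.3 against 1.49 CPM), Clec9a (4.41 against 0.471), Cd209a (7.04 against 1.43) and Ccr7 (99.5 against 5.47), with Fscn1 (132 against 20.5), Dpp4 (47.5 against 3.18) and Kmo (57.5 against 12.8). Zbtb46 (0.95 ± 0.38) and Xcr1 (-0.69 ± 0.46) did not pass. The 10 dendritic cell markers summed to 206 to 494 CPM in HPV-positive, 43.0 to 53.3 in HPV-negative and 18.2 to 23.7 in SCCVII libraries, with none at 0. Cultured tumour lines summed to 160 to 234 CPM (HPV-positive), 275 to 366 CPM (HPV-negative) and 234 to 256 CPM (SCCVII). The sum is therefore not particular to dendritic cells, though Cd209a and Siglech of this list had 0 counts in all 3 lines. The migration receptor Ccr7 stood at 151, 41.6 and 106 CPM in HPV-positive replicates 1, 2 and 3, where Cd274 was 727, 657 and 655 CPM and Pdcd1lg2 197, 192 and 153 CPM. Eosinophil markers summed to 87.2 to 117 CPM, 7.46 to 10.1 CPM and 1.51 to 1.91 CPM in the same order, with Epx and Il5ra at 0 in all 3 groups. Of the 3 tested, Siglecf (54.1 against 1.33 CPM) and Ear2 (44.9 against 4.86 CPM) rose in HPV-positive against HPV-negative macrophages, and the eotaxin receptor Ccr3 fell (0.249 against 2.89 CPM). Natural killer markers summed to 66.2 to 126 CPM, 18.1 to 37.3 CPM and 5.69 to 9.66 CPM, with 4 of 6 rising in HPV-positive against HPV-negative macrophages. In the cultured HPV-positive line these 6 markers summed to 38.1 to 63.4 CPM. Endothelial markers summed to 151 to 183, 26.7 to 44.7 and 18.8 to 24.0 CPM. Neutrophil markers summed to 80.4 to 96.5, 57.0 to 72.6 and 36.4 to 37.2 CPM. Mast cell or basophil markers summed to 12.1 to 25.2, 4.08 to 6.63 and 2.38 to 3.04 CPM. Between the MEER groups, 2 of 4 tested markers rose and 1 fell for endothelium and likewise for neutrophils. For mast cells or basophils 2 of 3 rose and none fell. T cell markers summed to 159 to 203 CPM, 75.8 to 106 CPM and 20.7 to 37.9 CPM. Between the MEER groups 1 of 10 rose, the interleukin-7 receptor Il7r (114 against 21.1 CPM), and the other 9 had adjusted p of 0.56 to 0.82, while 8 of 10 fell in SCCVII against HPV-negative macrophages. Of the 9 macrophage markers 2 rose, near the share of all genes, and 4 fell in HPV-positive against HPV-negative macrophages. The 9 summed to 14055 to 15757 CPM, 19572 to 25396 CPM and 22858 to 25215 CPM. The part of such cells in the ligand levels was not tested. Epithelial markers summed to 433 to 559 CPM in HPV-positive against 76.5 to 153 CPM in HPV-negative macrophages, mostly from Cdh1 (443 against 53.9 CPM). Of the 5 tested, Cdh1 and Epcam rose, and Krt8 (-0.29 ± 0.45), Krt18 (0.46 ± 0.40) and Krt19 (0.96 ± 0.78) did not pass. The cultured HPV-positive line held Cd274 at 0.770 CPM and Pdcd1lg2 at 1 count in all, and its cells inside a tumour were not measured. The part of tumour cells in the ligand levels was not tested.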

How the data were processed

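RNA libraries were stranded mRNA (TruSeq), per the labels' protocols. The authors deposited expected counts and TPM per gene in 2 tables, of 20 and 3 libraries, with RSEM-type columns of gene length and effective length, per the file headers. Tools listed in the submitters' processing notes are RSEM 1.3.0, STAR 2.5.3a, MultiQC and FastQC, with build mm10/GRCm38. For annotation release, strand setting and read filters, nothing is stated (not given in the sources used here). RSEM divides reads that fit several genes. Of the values 13.1% were not whole and were rounded.

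Tests used edgeR 4.0.16 (R 4.3.3) with TMM, filterByExpr (minimum count 10, total 15), quasi-likelihood tests, a prior count of 0.125 and Benjamini-Hochberg adjustment over all genes at 0.05, each fit holding the libraries of its kinds of sample: 9 of macrophages, 9 of lines, 18 of both, 11 of colonies with macrophages and 11 of colonies with lines. The fit was tested on simulated data. No library repeated another within sampling noise. Floors of 3 counts and intervals cover counting error only. Of the gene identifiers 95.8% matched a symbol. The ratio test used a prior count of 0.5, and the likeness measure a pseudocount of 0.5 CPM. Alternatives were DESeq2 1.42.0, other size factors, no filter, all libraries in a fit, a replicate block and leaving out libraries.

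The ligands, gene lists and tests were chosen with earlier results of these data known. Named genes are the ligands, the locus, their partners and other B7 genes, the 5 most alike per ligand, and up to 2 rises and 2 falls per list and comparison, some left out for length.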

Additional observations from a re-analysis of the deposited data

Results flagged for a closer look

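The HPV-status change of Cd274 differed between macrophages and cultured lines, with a difference of 5.73 ± 0.21 on the log2 scale by the interaction test of edgeR (adjusted p = 2.3e-11). The line libraries are aliquots of a line, so p-values that involve lines rest partly on the spread between aliquots. HPV-positive libraries lay above HPV-negative ones in all 3 against 3 macrophage libraries and below them in all 3 against 3 line libraries.

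The change of Cd274 from HPV-negative MEER to SCCVII also differed between macrophages and lines, by -2.84 ± 0.18 (adjusted p = 5.2e-09). The change from macrophage to colony differed between SCCVII and HPV-negative MEER by 3.91 ± 1.01 (adjusted p = 0.022), a call lost in 6 of 16 alternatives: without SCCVII colony replicate 1 (1.62), HPV-negative colony replicate 2 or any 1 of the 3 SCCVII macrophage replicates, and with a replicate block (3.43).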

How the results depend on the processing

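All 72 alternatives of the 6 macrophage results kept direction and side of the threshold, and over all 31 results 353 of 385 did. With all 23 libraries in a fit, Cd274 between the SCCVII and HPV-negative lines was 0.91 and no longer passed, while SCCVII colonies newly passed against macrophages (1.77) and against HPV-negative colonies (1.99). With DESeq2 those were 1.77 and 1.92 and passed, as did the Pdcd1lg2 HPV-status interaction (6.67). With a replicate block the Cd274 colony interaction was 3.43 and did not pass, and the block changed no other call. Same-numbered libraries of 2 groups correlated at -0.13 to 0.35 in their deviations, mostly near 0, so the numbers were not taken as pairs.

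Leaving out 1 library changed calls or signs in the ranges that follow. Pdcd1lg2 in SCCVII macrophages against the line was 4.78 to 6.64. Against macrophages, Cd274 was -2.63 to -1.76 in HPV-negative and -0.54 to 2.61 in SCCVII colonies, and Pdcd1lg2 in SCCVII colonies -6.17 to 0.10. Between colonies the ranges were -0.33 to 2.81 for Cd274 and -5.40 to 0.60 for Pdcd1lg2, and for the colony interaction 1.62 to 4.76 and -1.61 to 4.66. Cd274 in colonies against lines was 1.42 to 2.28 in HPV-negative MEER and 0.81 to 3.87 in SCCVII. Without SCCVII colony 1 or 2 the lone library is assumed to vary like the others. The cause was not tested, beyond fewer libraries.

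The Pdcd1lg2 share of 59.9% was 49.0% with the union of annotated exons, an alternative chosen after seeing the data, as were the next. Under other size factors 8 of 9 interleukin-4 signalling genes rose and 2 locus genes fell in HPV-positive macrophages. Without HPV-negative macrophage 4 the interleukin-4 target falls in SCCVII stayed at 11 of 12. Depth limits Pdcd1lg2 in lines, colonies and SCCVII macrophages.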
